A study of Mus musculus with 24 samples.

Results

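The samples described here are the 6 liver arrays among the 24 arrays of the series: 3 livers at 90 weeks of age, labelled replicates 1, 2 and 4, and 3 livers at 10 weeks, labelled replicates 1, 2 and 3. They were chosen by their tissue label alone. The series belongs to a study of senescent cells and aged tissues, and it holds lung, kidney and WAT (white adipose tissue) at the same ages beside liver. All of the livers came from male C57BL/6J mice, and the labels give no treatment. Total RNA was labelled with Cy3 and hybridized to Agilent mouse arrays in 1 colour, 1 sample per array. The methods of the study name a human array kit, but the design that came with these data is a mouse one. The labels do not say outright that each array is a separate animal, so the p-values below measure the spread between these samples. They are called young 1, 2 and 3 and aged 1, 2 and 4 here.

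A liver is mostly hepatocytes, which make plasma proteins and bile acids, detoxify drugs and ammonia, and divide these tasks between the portal and the central ends of the lobule. In mice many hepatocyte genes differ between the sexes, because males release growth hormone in pulses and females release it almost steadily. Between the hepatocytes lie sinusoidal endothelium, stellate cells that store vitamin A and can turn into matrix-making cells, Kupffer cells, which are the resident macrophages, and passing leukocytes. In a bulk sample, fewer cells of a type and less RNA per cell cannot be told apart.

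Each value below is the log2 processed signal of a gene's brightest probe minus the 75th percentile of that array, so a level of 0 is the 75th percentile. Levels are given in the order young 1, young 2, young 3, aged 1, aged 2, aged 4. That percentile was 259, 307 and 289 signal units on the young arrays and 448, 340 and 436 on the aged arrays, and 58.6 to 62.6% of probes were well above background. The number of arrays limits the precision. All 6 liver arrays share 1 slide and 1 scan, so age is not split by slide. A gene is said to have risen, fallen or been called where its limma p, adjusted over all 27906 genes and unmatched targets tested, was below 0.05. An exact permutation test of 3 against 3 samples cannot give a two-sided p below 0.1, so none is given.

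The tissue label was checked against 12 hepatocyte markers. Alb, the gene of serum albumin, read 10.97, 10.67, 10.73, 10.16, 10.63 and 10.29, and its dimmest liver lay 3.93 above the brightest of the 18 arrays of other tissues. The same gap was 6.12 for Apoa1, an apolipoprotein of HDL, and 7.70 for Cps1, the entry enzyme of the urea cycle. Without replicate 1 of lung at 90 weeks, described at the end, these gaps were 8.97, 11.21 and 8.14. There were 2 markers without a clear gap. Hnf4a, a nuclear receptor that keeps hepatocyte identity, had a gap of -0.09, because kidney reached 7.03. Pck1, an enzyme of glucose synthesis shared by kidney and fat, had a gap of 0.03. All 12 markers were well above background on all 6 liver arrays. With age 3 of them fell, 0 rose, and the median change was -0.43. The 3 were Cps1 (-0.98, adjusted p = 0.0478), Ttr, a thyroid hormone carrier (-0.75, adjusted p = 0.0484), and Apoc3, an apolipoprotein (-0.64, adjusted p = 0.0344). Each of the 3 passed in 1 of the 6 fits that leave out 1 sample. Hepatocyte markers called lower numbered 0 without young 1, young 2, young 3 or aged 1, 1 without aged 2 and 3 without aged 4. Under quantile normalization the median was -0.06, and none of the 12 was called.

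Of all genes and targets tested, 7677 were called (27.5%), 2928 of them higher at 90 weeks (10.5%) and 4749 lower (17.0%). The groups did not overlap in 49.9% of all genes tested and in 7670 of those called, so such a separation adds little to a call. The median change over all tested was -0.20 on the log2 scale. That shift depends on the scaling: it was -0.04 with arrays scaled to their spike-in spots and -0.11 with quantile normalization, and changes below are best read against it. Calls in the higher direction made up 38.1% of calls here and 76.3% with spike-in scaling, where 854 genes were called lower. Without young 1 the share was 59.4% and without young 2 it was 60%, with 1208 and 997 genes called lower. Without aged 1 or aged 2 the count lower was 2627 and 2697. Beside these, the spike-in spots stood 1.52, 1.43, 1.43, 0.98, 1.64 and 1.27 above the 75th percentile, so aged 1 had the lowest and aged 2 the highest offset. The part of that offset in the results was not tested.

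Directions of change were unequal across the liver's functions and cell types. Of 444 tested genes on 18 lists of hepatic functions, 124 fell, 19 rose and the median was -0.53. Of 229 genes on 15 cell type lists, hepatocytes included, 96 rose, 10 fell and the median was 0.87. Across 149 genes on 7 lists of processes such as interferon response and antigen presentation, 38 rose, 9 fell and the median was 0.56. The same contrast held with spike-in scaling in direction, with 24 hepatic function genes higher and 35 lower (median -0.36), and 99 cell type genes higher and 1 lower (median 1.03). Hepatic function genes called lower numbered 17 without young 1, 14 without young 2, 58 without young 3, 36 without aged 1, 62 without aged 2 and 172 without aged 4. Cell type genes called higher numbered 52, 51, 71, 73, 95 and 95 in the same order of omission.

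**Figure D1:**
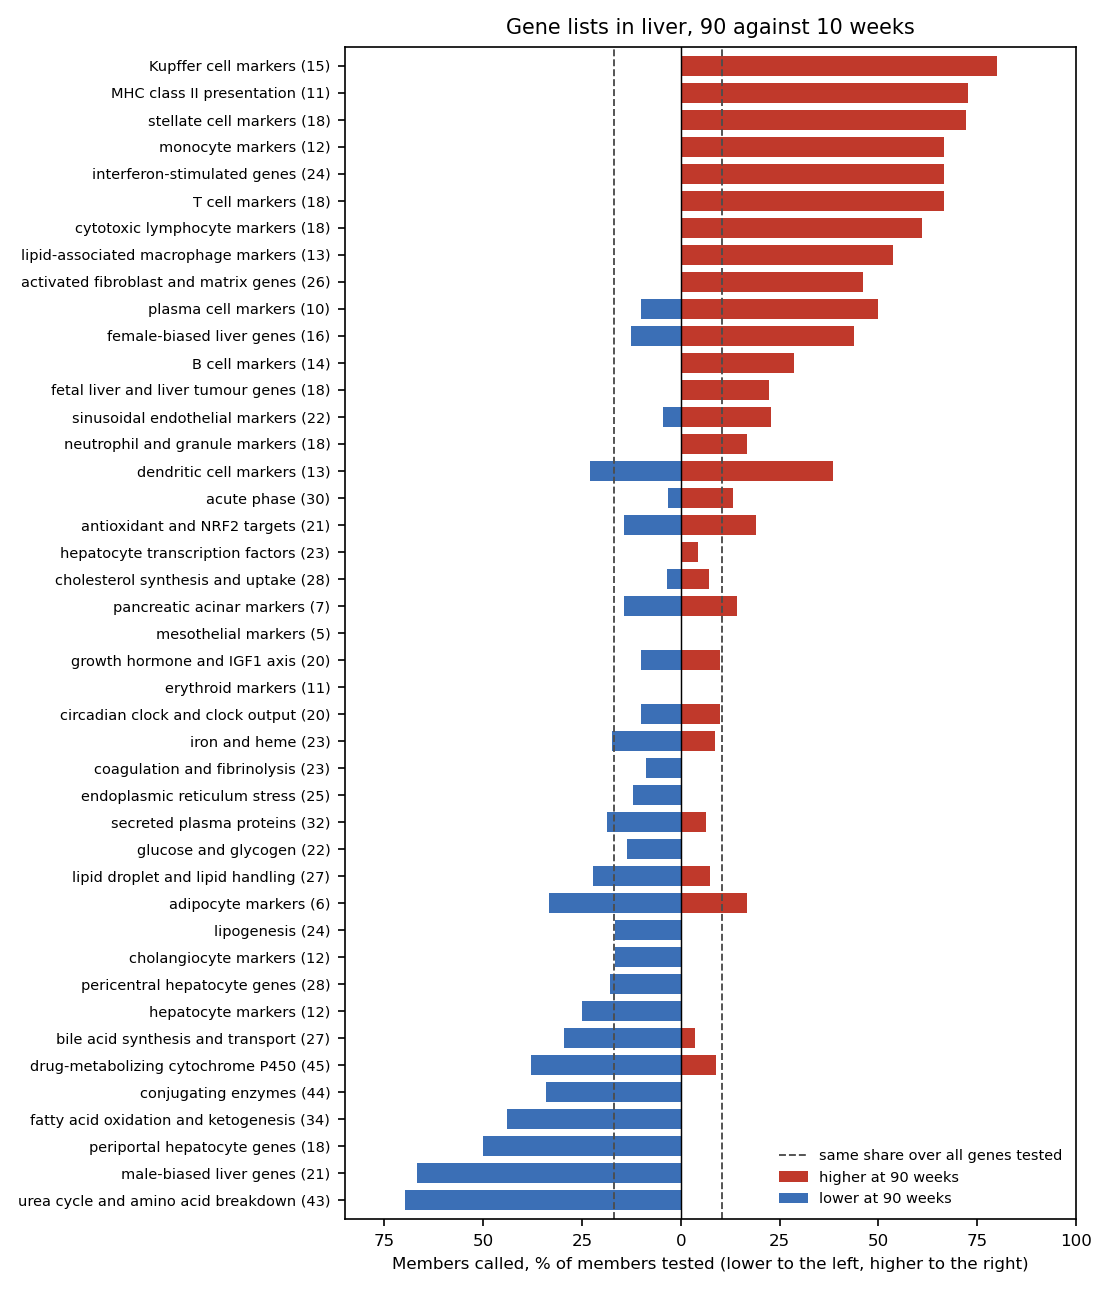
Members of each gene list called higher and called lower in liver at 90 weeks against 10 weeks (3 samples a group), in percent of the members tested. Over all genes tested, 10.5% were called higher and 17.0% lower.

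The 3 aged livers were not alike. For 105 of the 124 hepatic function genes that fell (84.7%), aged 4 was the aged sample nearest to the young mean, and for 85 of them (68.5%) aged 2 was the farthest. Over all 4749 genes called lower those shares were 51.1% for aged 4 as nearest and 60.2% for aged 2 as farthest. Among the 96 cell type genes that rose, aged 4 was nearest for 45 (46.9%) and aged 2 farthest for 42 (43.8%), against 52.9% and 55.9% over all 2928 called higher. Across all genes the levels of any 2 aged livers correlated at 0.973 to 0.986 and of any 2 young livers at 0.986 to 0.991; genes are not independent replicates, and these values are a description.

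Genes with higher levels in male than in female liver had the lowest median of the hepatic lists. Of 21 tested male-biased genes, 14 fell and 0 rose (median -1.93). The list's median level was 6.15, 6.39 and 6.14 in the young livers and 2.90, 2.71 and 4.54 in the aged. No aged liver overlapped the young ones, and aged 4 lay between. Hsd3b5, a steroid reductase of male liver, is the example with the widest spread at 5.91, 6.13, 5.35, -2.73, -5.55 and 2.76. Elovl3, which elongates fatty acids, read 6.52, 6.61, 4.85, -2.45, -3.22 and 3.77 and fell by 6.63 (adjusted p = 0.0325). Cyp4a12a, a fatty acid hydroxylase, read 5.83, 6.18, 6.05, -0.48, -3.70 and 3.67 and fell by 6.19 (adjusted p = 0.0325). Its neighbour Cyp4a12b fell by 6.17 (adjusted p = 0.0324). In each of these genes aged 2 was lowest. Mup1, a pheromone carrier chosen after its values were seen, read 10.36, 10.27, 10.26, 8.20, 8.04 and 9.62 and fell by 1.68 (adjusted p = 0.0260). Nudt7, a peroxisomal hydrolase also chosen after its values were seen, changed by -3.55.

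Of 16 female-biased genes tested, 7 rose, 2 fell and the median was 1.22. For 3 of them the change is known only as a bound, and the median was 0.43 over genes well above background on all 6 arrays. Cyp3a44, a cytochrome P450, read -5.49, -6.51, -6.61, -1.46, 1.90 and -2.92. None of its young arrays was well above background, so its rise of 5.38 (adjusted p = 0.0173) is given as at least 14.2-fold, measured against the dimmest spot that was well above background on each young array; "at least" is used in this way throughout, and does not hold with normexp background correction. Cyp2b13 rose by 3.95 (adjusted p = 0.00626) and read -3.48, -3.74, -4.04, 1.60, -0.81 and -0.19. Cyp2b9 read 4.28, 4.39, 3.86, 6.06, 7.52 and 7.49, a rise of 2.85 (adjusted p = 0.00589). Cux2, a repressor that is characteristic of female liver, read -4.97, -6.62, -5.34, -0.07, -0.50 and -4.55 and rose at least 7.70-fold (adjusted p = 0.0436), with aged 4 close to the young range. The 2 that fell, named after their values were seen, were Cyp3a16 (-1.34) and Cyp2c69 (-0.56). The brightest member, Cyp3a41a, was not called, and the summed level of the list on the linear scale was 1070, 1060, 953, 560, 644 and 1140 times the 75th percentile, so it did not follow the median.

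Male-biased genes called lower numbered 3, 3, 5, 5, 10 and 16 without young 1, 2, 3 and aged 1, 2, 4 in turn, and 11 with spike-in scaling. Hsd3b5, Cyp4a12a and Cyp4a12b passed only without aged 2 or aged 4, with highest adjusted p of 0.0829, 0.0936 and 0.0925 without young 2, and Elovl3 only without aged 4 (highest 0.0976). Female-biased genes called higher numbered 5, 4, 6, 5, 7 and 7 in the same order, those called lower 0, 0, 0, 1, 0 and 2, and Cyp2b9 and Cyp2b13 passed in all 6 of these fits. Cyp3a44 was lost without young 2 (adjusted p = 0.0616), and Cux2 passed only without aged 4 (highest 0.129).

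**Figure D2:**
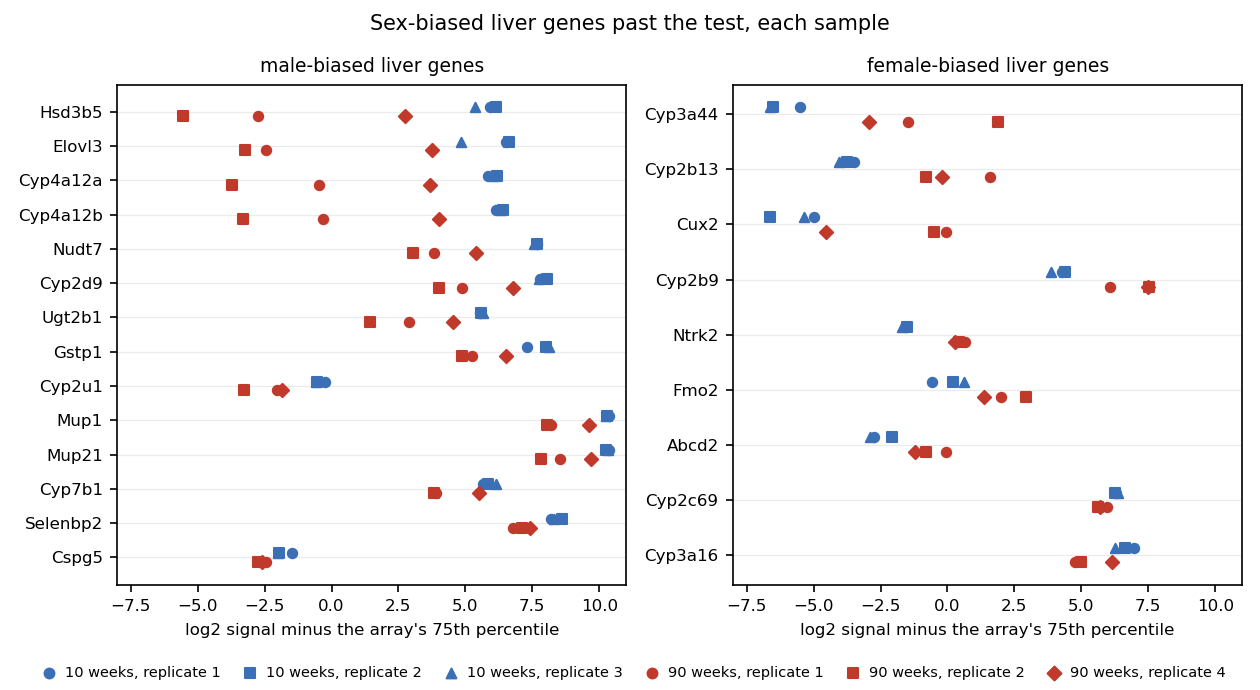
Level of each called male-biased (left) and female-biased (right) gene in the 6 livers, log2 signal minus the array's 75th percentile. Hsd3b5 spans 5.35 to 6.13 in the young livers and -5.55 to 2.76 in the aged, and Cyp2b9 3.86 to 4.39 and 6.06 to 7.52.

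Growth hormone sets the sex pattern of liver, and the genes of its axis were listed too. Of 20 tested, 2 rose and 2 fell (10% each, against 10.5% and 17.0% of all genes tested). The median of -0.03 turned positive in 6 alternatives, among them spike-in scaling (0.13). The part of this axis in the sex-biased changes was not tested. Igfbp3, which carries IGF1 in blood and is made by non-parenchymal liver cells, read 2.80, 2.89, 2.31, 4.38, 3.68 and 4.14 and rose by 1.40 (adjusted p = 0.0110). Prlr, the prolactin receptor, rose by 0.78 (adjusted p = 0.0441; 0.52 on the mean of its 3 passing probes, adjusted p = 0.167). Stat5a, a signal transducer below the growth hormone receptor, fell by 0.94 (adjusted p = 0.0305), or by 0.61 on the mean of its 2 passing probes (adjusted p = 0.0453). Igfals, the partner of Igfbp3 in serum, fell by 0.73 (adjusted p = 0.0460). Igf1 and the receptor Ghr, named after their values were seen, had changes of -0.44 (adjusted p = 0.0891) and -0.68 (adjusted p = 0.133) and were not called. Igfbp3 passed in all 6 fits without 1 sample. Prlr and Stat5a each passed in 1 of them, without aged 2 and young 2, and Igfals in 0 (highest adjusted p 0.121, without young 2). Counts higher and lower were 1 and 0 without young 1, 1 and 1 without young 2, 1 and 0 without young 3, 2 and 1 without aged 1, 2 and 0 without aged 2, and 1 and 1 without aged 4.

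Among 45 drug-metabolizing cytochrome P450 genes, 17 fell, 4 rose and the median was -0.65. Cyp2d34 read 3.17, 3.43, 3.24, 0.17, -1.11 and 2.04 and fell by 2.92 (adjusted p = 0.0267). All 4 that rose were of subfamilies 2b and 3a: Cyp3a44, Cyp2b13, Cyp2b9 and Cyp2b10, the last a target of the xenobiotic receptor CAR that was named after its values were seen (2.73, adjusted p = 0.0151). Of 46 P450 genes listed, 18 stand on another list too, many of them a sex-biased one. Conjugating enzymes, which attach glucuronide, sulfate or glutathione to the products, had 15 of 44 lower, 0 higher and a median of -0.97. Ugt2b1, a glucuronosyltransferase, fell by 2.63 (adjusted p = 0.0336) from 5.53, 5.57 and 5.64 to 2.90, 1.42 and 4.54. Gstp1, a glutathione transferase, fell by 2.27 (adjusted p = 0.0148), Ugt2b35 by 1.45 (adjusted p = 0.0356) and the sulfotransferase Sult1b1 by 1.36 (adjusted p = 0.0257). In all 4 of these conjugating enzymes aged 4 was the aged liver nearest to the young.

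With spike-in scaling, P450 genes called lower numbered 5 and conjugating enzymes 2. Without young 1, 2, 3 and aged 1, 2, 4 in turn, the counts lower were 1, 1, 7, 6, 10 and 26 for the P450 genes and 1, 0, 10, 3, 9 and 29 for the conjugating enzymes, of which 3 were called higher without aged 2. Cyp2d34 and Ugt2b1 passed without aged 2 or aged 4 alone (highest adjusted p 0.0835 and 0.0940), Gstp1 in all fits but that without young 2 (0.0571), Sult1b1 without young 3 or aged 4 (highest 0.0879) and Ugt2b35 without aged 4 (highest 0.0972).

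In the urea cycle and amino acid list 30 of 43 fell (69.8%), 0 rose and the median was -0.98. Hal, which starts histidine breakdown, read 6.73, 6.34, 5.96, 4.31, 4.30 and 4.76 and fell by 1.88 (adjusted p = 0.00445). Amdhd1, a later step of the same path, read 4.30, 4.08, 3.76, 2.61, 1.72 and 2.46 and fell by 1.78 (adjusted p = 0.00779). Aadat, a transaminase of the lysine and kynurenine paths, fell by 1.52 (adjusted p = 0.0143), and Amt, a part of the glycine cleavage system, by 1.49 (adjusted p = 0.0115). Among urea cycle enzymes named after their values were seen, Ass1 fell by 0.99 (adjusted p = 0.0342) and Otc by 1.22 (adjusted p = 0.0340). The count lower was 9 with spike-in scaling and 9, 7, 21, 10, 14 and 34 without young 1, 2, 3 and aged 1, 2, 4. Hal, Amdhd1 and Amt passed in all 6 of those fits, and Aadat in all but that without young 2 (adjusted p = 0.0570).

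In fatty acid oxidation 15 of 34 tested genes fell, 0 rose and 19 were not called (median -0.90). Cyp4a31 and Cyp4a10 hydroxylate fatty acids at their far end and are targets of the receptor PPARa. They read 7.33, 7.60, 6.91, 4.53, 2.63 and 5.89, and 6.42, 6.59, 5.74, 3.83, 1.52 and 4.93, falls of 2.93 (adjusted p = 0.0299) and 2.82 (adjusted p = 0.0400). Acaa1b, a peroxisomal thiolase, fell by 2.42 (adjusted p = 0.0425), and Eci1, a mitochondrial isomerase, by 1.38 (adjusted p = 0.0303). Aged 2 was lowest in all 4. The list's count lower was 3 with spike-in scaling and 0, 0, 0, 1, 7 and 25 without young 1, 2, 3 and aged 1, 2, 4. Cyp4a31, Cyp4a10, Acaa1b and Eci1 passed only without aged 2 or aged 4 (highest adjusted p 0.0940, 0.116, 0.114 and 0.1), and without aged 2 Acaa1b changed by -1.57 and Cyp4a10 by -1.87.

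Of 27 lipid droplet and lipid handling genes, 6 fell (22.2%) and 2 rose (7.41%), with a median of -0.48. These shares are not far from the 17.0% and 10.5% of all genes tested. Plin2, which coats lipid droplets, read 7.52, 7.81, 7.61, 6.02, 5.57 and 6.98 and fell by 1.46 (adjusted p = 0.0257). Fabp2 fell by 2.16 (adjusted p = 0.0258), and Fitm2, which helps droplets bud, by 1.28 (adjusted p = 0.0282). The 2 that rose were Fabp4, a fatty acid binder of fat cells and macrophages, at 2.05, 2.47, 2.53, 4.06, 4.42 and 4.16 (adjusted p = 0.00264), and the fatty acid receptor Cd36 (1.13), named after its values were seen. In lipogenesis 4 of 24 fell (16.7%, near the 17.0% of all genes tested) and 0 rose (median -0.46): Elovl3, given above, Scd1, the desaturase that makes oleate (-1.43, adjusted p = 0.0410), Elovl5 (-1.43, adjusted p = 0.0375) and Dgat1, the last step of triglyceride synthesis (-0.61, adjusted p = 0.0394). Lipid droplet genes called lower numbered 1, 1, 2, 3, 5 and 7 and lipogenesis genes 0, 0, 3, 0, 0 and 11 without young 1, 2, 3 and aged 1, 2, 4 in turn. Lipid droplet genes called higher numbered 1, 2, 1, 2, 2 and 4. With spike-in scaling the counts were 4 higher and 1 lower for droplets and 2 lower for lipogenesis. Fabp4 passed in all 6 fits, Plin2 and Fabp2 failed without any young sample (highest adjusted p 0.0866 and 0.0851, without young 2), Plin2 also without aged 1, and Fitm2 and Dgat1 passed only without aged 4 (highest 0.0959 and 0.131, without young 2). Scd1 and Elovl5 passed without young 3 or aged 4 alone (highest 0.113 and 0.108).

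In bile acid synthesis and transport 8 of 27 fell, 1 rose and 18 were not called (median -0.72). Abcb11, the pump that exports bile salts, read 7.07, 6.89, 6.78, 5.61, 5.57 and 5.53 and fell by 1.35 (adjusted p = 0.00302). Hsd3b7, an early enzyme of synthesis, read 7.67, 7.59, 6.90, 5.63, 5.72 and 5.86 and fell by 1.65 (adjusted p = 0.00582). The aged livers were nearly equal for these 2. Cyp7b1, an enzyme of the alternative path that is also male-biased, fell by 1.47 (adjusted p = 0.0489), and Amacr, a racemase of the side chain, by 1.05 (adjusted p = 0.0185). The 1 that rose, named after its values were seen, was the exporter Abcc4 (0.68). Cyp7a1, the rate-limiting enzyme, also named after its values were seen, had levels of -0.83, 2.15, -0.19, 0.78, 0.46 and -0.01 that overlapped between the ages. The count lower was 3 with spike-in scaling and 2, 2, 4, 3, 3 and 15 without young 1, 2, 3 and aged 1, 2, 4, and Abcc4 was called in 0 of those 6 fits. Abcb11 and Hsd3b7 passed in all 6 fits, Amacr failed without young 1 or young 2 (highest adjusted p 0.0737), and Cyp7b1 passed only without aged 4 (highest 0.123).

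Of 28 genes of cholesterol synthesis and uptake, 2 rose (7.14%) and 1 fell (3.57%), against 10.5% and 17.0% of all genes tested. The median of 0.17 turned negative under the replicate block and without young 3 or aged 2 (-0.13 without young 3). Insig2, which restrains that synthesis, read 6.23, 5.99, 5.11, 3.55, 4.74 and 4.81 and fell by 1.41 (adjusted p = 0.0476). Counts higher and lower were 1 and 0 without young 1, 0 and 0 without young 2, 1 and 2 without young 3, 1 and 0 without aged 1 or aged 2, and 3 and 0 without aged 4. Insig2 passed only without young 3 (highest adjusted p 0.137).

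Of 18 periportal genes 9 fell and 0 rose (median -0.77). Of 28 pericentral genes 5 fell (17.9%, near the 17.0% of all genes tested) and 0 rose (median -0.55); 14 of the former and 16 of the latter are on another list too. Cdh1, the E-cadherin of periportal hepatocytes, read 1.92, 1.61, 1.5, -1.52, 0.44 and -2.32 and fell by 2.81 (adjusted p = 0.0224). Etnppl, a phospholyase, fell by 2.73 (adjusted p = 0.0427) and Cyp2f2, a periportal P450, by 1.44 (adjusted p = 0.0184). In Cdh1 it was aged 2, and in Etnppl and Cyp2f2 it was aged 4, that lay nearest to the young. At the central end Oat, a transaminase of ornithine, fell by 1.43 (adjusted p = 0.0322), Cyp1a2 by 1.18 (adjusted p = 0.0458), the tight junction gene Cldn2 by 0.90 (adjusted p = 0.0181) and Cyp27a1 by 0.86 (adjusted p = 0.0366). Glul, the glutamine synthetase of the last cells before the vein, named after its values were seen, did not pass (-0.39, adjusted p = 0.110). With spike-in scaling 4 periportal genes were lower, and of the pericentral genes 0 were lower and 1 higher. Without young 1, 2, 3 and aged 1, 2, 4 the counts lower were 1, 1, 5, 1, 3 and 9 for the portal list and 0, 0, 1, 3, 2 and 13 for the central list. Etnppl, Cyp1a2, Oat and Cyp27a1 passed only without aged 4 (highest adjusted p 0.111, 0.119, 0.0952 and 0.109, without young 2), and Cdh1 without aged 2 or aged 4 (highest 0.0735). Cyp2f2 failed without young 1, young 2 or aged 1 (highest 0.0653), and Cldn2 without young 1 or young 2 (highest 0.0708).

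**Figure D3:**
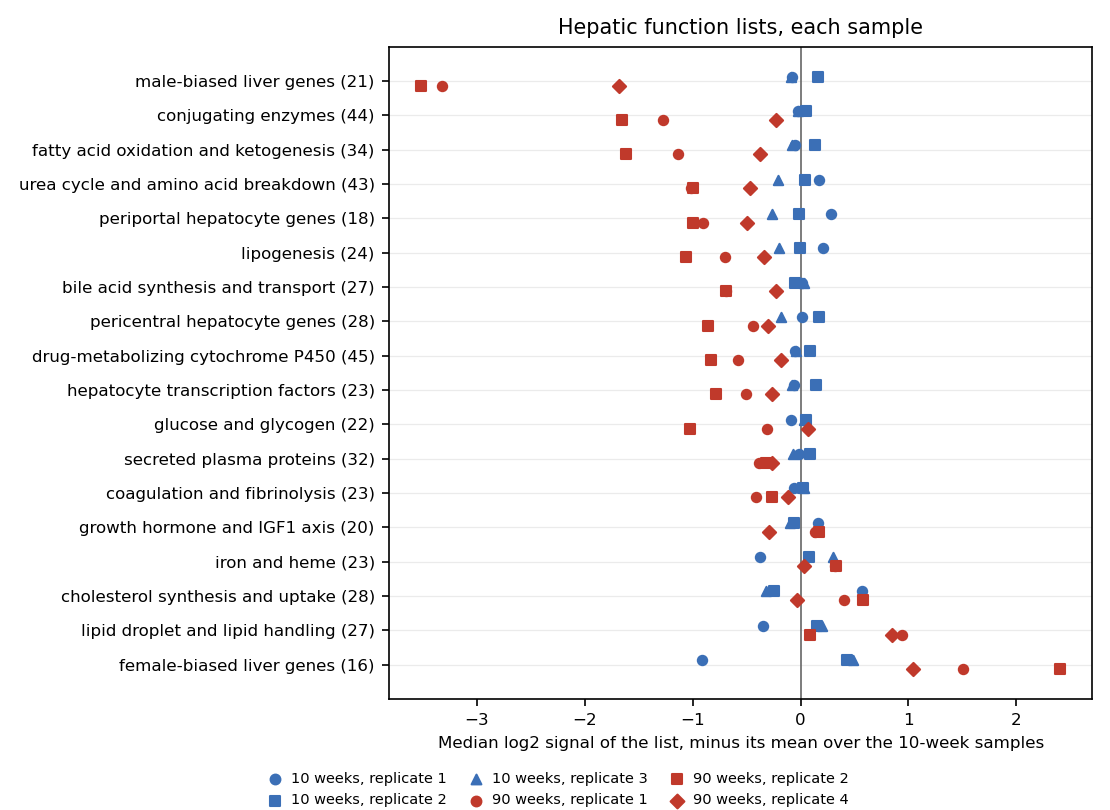
Median level of each hepatic function list in the 6 livers, log2 signal minus the mean of that median over the 10-week livers, with the number of members tested in brackets. The male-biased list had medians of 2.90, 2.71 and 4.54 in the aged livers, and aged 4 (diamond) was the aged sample nearest to the young in it.

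Glucose metabolism, plasma proteins, clotting factors and transcription factors were nearer to the background. In that order 13.6, 18.8, 8.7 and 0% of members were called lower, against 17.0% of all genes tested. Those called higher were 0, 6.25, 0 and 4.35%, against 10.5%. Of 22 glucose and glycogen genes, 3 fell and 0 rose (median -0.44), among them Pygl, the glycogen phosphorylase of liver (-0.76, adjusted p = 0.0312), and Pcx, which makes oxaloacetate (-0.50, adjusted p = 0.0435). Among 32 secreted plasma proteins 6 fell and 2 rose, and the median of -0.27 turned to 0.13 under quantile normalization. Apoa4, an apolipoprotein, read 4.75, 4.42, 4.44, 5.77, 7.27 and 5.68 and rose by 1.71 (adjusted p = 0.0279). Serpina7, a carrier of thyroid hormone, rose by 1.41 (adjusted p = 0.0311) and Apoc4 fell by 0.95 (adjusted p = 0.0134). Of 23 clotting genes 2 fell, Klkb1, the plasma prekallikrein (-0.94, adjusted p = 0.0364), and factor F11 (-0.73, adjusted p = 0.0386). The clotting median of -0.11 turned positive under quantile normalization (0.24), spike-in scaling (0.06), the replicate block and without aged 4. Of 23 hepatocyte transcription factors Cux2 alone was called, and the median was -0.38.

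Genes called lower numbered 1, 0, 2, 0, 0 and 3 for glucose, 0, 0, 1, 1, 2 and 2 for plasma proteins and 0, 0, 0, 0, 2 and 1 for clotting without young 1, 2, 3 and aged 1, 2, 4. Plasma proteins called higher numbered 0, 0, 1, 1, 3 and 1. With spike-in scaling the counts lower for these 3 lists were all 0. Pcx passed in 0 of the 6 fits (highest adjusted p 0.131), F11 in 1 (highest 0.129), Klkb1 in 2 (highest 0.103) and Pygl in 2 (highest 0.106). Apoa4 failed without any young sample (highest 0.0887), Apoc4 without young 1 or young 2 (highest 0.0591), and Serpina7 passed without young 3 or aged 2 alone (highest 0.0929).

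Of 20 clock genes tested, 2 rose and 2 fell (10% each, against 10.5% and 17.0% of all genes), and the median was 0.69 (0.34 without aged 4). Per2, a repressor of the core loop, read -0.10, 1.00, 1.51, 2.52, 2.26 and 2.94 and rose by 1.78 (adjusted p = 0.0234), but its 2 passing probes differed, and on their mean Per2 missed the threshold (0.49, adjusted p = 0.151). Bhlhe40, another repressor, rose by 1.00 (adjusted p = 0.0145). Nr1d1, which encodes REV-ERBa, read 2.33, 1.51, 1.34, 0.70, -1.78 and -1 and fell by 2.42 (adjusted p = 0.0302), and Clock itself fell by 1.20 (adjusted p = 0.0333). The labels give no hour of collection, so age and hour cannot be told apart here. Bhlhe40 passed in all 6 fits without 1 sample, Per2 failed without young 2, aged 1 or aged 4 (highest adjusted p 0.0651), Nr1d1 passed only without aged 1 (highest 0.0958) and Clock only without aged 4 (highest 0.104). Counts higher were 1 without young 2 or aged 4 and 5 without young 3; counts lower were 0 without any young sample or aged 2 and 1 without aged 1 or aged 4.

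In iron and heme handling 4 of 23 fell (17.4%) and 2 rose (8.70%), close to the 17.0% and 10.5% of all genes, and the median of 0.07 turned negative without young 1 (-0.05), young 2 or aged 4. Hamp2, a hepcidin-like peptide gene of mice, read 6.70, 6.2, 4.47, 1.61, -0.12 and 2.91 and fell by 4.32 (adjusted p = 0.0147). Steap3, a ferrireductase, fell by 1.08 (adjusted p = 0.0160), and Hjv, a coreceptor that drives hepcidin, by 0.93 (adjusted p = 0.0416). Hmox1, which degrades heme, read 2.55, 2.76, 3.11, 4.69, 4.27 and 5.46 and rose by 2 (adjusted p = 0.00840). Hmox1 and G6pdx also stand among 21 antioxidant and NRF2 targets. Of these 4 rose (19%) and 3 fell (14.3%), against 10.5% and 17.0% of all genes, and the median was -0.34. With spike-in scaling 3 antioxidant genes were called higher and 0 lower. G6pdx, the entry to the pentose phosphate path, rose by 1.89 (adjusted p = 0.00732) and the carbonyl reductase Cbr3 by 1.17 (adjusted p = 0.0365), while Cat, the catalase of peroxisomes, fell by 1.34 (adjusted p = 0.0360). Hmox1 and G6pdx passed in all 6 fits without 1 sample. Hamp2 and Steap3 failed without young 1 or young 2 (highest adjusted p 0.0563 and 0.0570), Hjv passed only without young 3 (highest 0.13), Cbr3 only without aged 1 (highest 0.0860) and Cat only without aged 4 (highest 0.111). Iron genes called lower numbered 0, 0, 3, 2, 2 and 5 and called higher 1, 1, 2, 1, 3 and 2 without young 1, 2, 3 and aged 1, 2, 4. Antioxidant genes called higher numbered 2, 2, 2, 3, 2 and 2 and called lower 0, 0, 0, 0, 1 and 8.

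Of 15 Kupffer cell markers 12 rose, 0 fell and the median was 1.93. Adgre1, the F4/80 antigen, read 1.90, 2.21, 1.63, 4.57, 4.20 and 4.59 and rose by 2.54 (adjusted p = 0.00155). Vsig4, a complement receptor of Kupffer cells, read 1.49, 1.58, 0.98, 4.03, 3.87 and 3.64 and rose by 2.50 (adjusted p = 0.00162). Mpeg1, a pore protein of phagocytes, rose by 2.44 (adjusted p = 0.00252), and C1qb, a subunit of complement C1q, by 2.13 (adjusted p = 0.00339). Clec4f, the most specific of these markers, named after its values were seen, read 4.58, 4.72, 4.45, 5.87, 6.54 and 5.65. Summed over the list on the linear scale, levels were 163, 208, 152, 671, 705 and 590 times the 75th percentile, with Cd5l brightest. The count was 12 with spike-in scaling, 8 with the replicate block and 11, 11, 11, 12, 14 and 12 without young 1, 2, 3 and aged 1, 2, 4. All 4 genes from Adgre1 to C1qb passed in each of those 6 fits.

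Genes of lipid-associated macrophages, which gather around dying fat-laden cells, had 7 of 13 higher, 0 lower and a median of 2.29. Trem2, a lipid receptor, read -2.09, -3.01, -0.64, 3.35, 3.09 and 1.83 and rose by 4.67 (adjusted p = 0.00531). Gpnmb, a lysosomal glycoprotein, read -6.67, -6.64, -2.75, -0.10, 2.07 and -1.74, with 1 of 3 young arrays well above background (adjusted p = 0.0254). Cst7, a cystatin, rose at least 9.18-fold (adjusted p = 0.0252), and the integrin Itgax by 2.97 (adjusted p = 0.00297). Young 3 was the young liver nearest to the aged ones for Trem2, Gpnmb and Itgax. The list's summed level was 58.4, 43.0, 55.6, 113, 217 and 60.7, with Fabp5 brightest and not called; such a sum mostly follows its brightest probes. Trem2 and Itgax passed in all 6 fits without 1 sample, Cst7 failed without any young sample (highest adjusted p 0.0664), and Gpnmb passed without young 3 or aged 4 alone (highest 0.0846). The count was 3, 3, 6, 5, 6 and 10 without young 1, 2, 3 and aged 1, 2, 4.

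Monocyte markers showed 8 of 12 higher and 0 lower (median 2.46). Ms4a6c, a membrane protein of monocytes, read -2.21, -2.33, -1.84, 1.17, 1.60 and 0.69 and rose by 3.28 (adjusted p = 0.00153). Lyz2, the lysozyme of myeloid cells, rose by 2.76 (adjusted p = 0.00287), S100a4 by 3.04 (adjusted p = 0.0183) and Ccr2, the receptor by which monocytes leave the marrow, by 2.81 (adjusted p = 0.0267). Aged 2 was highest for S100a4 and Ccr2. The brightest member, Ms4a4c, did not pass (-0.34), and the summed level of 1000, 931, 1030, 826, 1500 and 1040 overlapped between the ages. Ms4a6c and Lyz2 passed in all 6 fits without 1 sample, while S100a4 and Ccr2 failed without young 1 or young 2 (highest adjusted p 0.0667 and 0.0886). The count was 3, 3, 6, 7, 8 and 7 without young 1, 2, 3 and aged 1, 2, 4.

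The summed level of neutrophil and granule genes was highest in aged 2. Their median change was 3.74 over 18 tested (3.68 with bounded genes at their bound), but 3 were called higher and 0 lower. Summed levels were 66.5, 56.6, 68.2, 168, 2250 and 93.0, so the other 2 aged livers were above the young too. Lcn2, an iron-scavenging protein of granules and injured hepatocytes, read 1.08, 0.93, 2.67, 6.41, 9.02 and 4.17 and rose by 4.97 (adjusted p = 0.0230). Mmp9, a gelatinase of granules, read -4.35, -5.10, -4.63, 0.41, 0.25 and -3.59 and rose at least 12.1-fold (adjusted p = 0.0362). The third was the granule gene Ngp, at -6.01, -6.36, -6.58, -2.20, 5.89 and -2.02, a rise of at least 37-fold, as no young array was well above background, and of at least 5.83-fold without aged 2. Among granule genes named after their values were seen, Mpo read -3.96, -3.66, -4.09, -1.17, 7.41 and -0.58 (adjusted p = 0.0773), and S100a8 -0.86, -1.73, 0.41, 2.40, 8.11 and 1.69 (adjusted p = 0.0635). Csf3r, the brightest member, changed by 0.00. Without aged 2 the median was 2.18 and 8 genes were called; the count was 0, 0, 1, 1 and 7 without young 1, 2, 3, aged 1 and aged 4, and 11 with spike-in scaling. Ngp failed without any young sample (highest adjusted p 0.114), Lcn2 without young 1, young 2 or aged 1 (highest 0.0783), and Mmp9 passed only without aged 4 (highest 0.106).

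Among the T cell and cytotoxic lymphocyte markers, genes were called higher but not lower. Of 18 T cell markers 12 rose and 0 fell (median 1.11). Cd2, an adhesion receptor, read -2.37, -2.29, -2.79, 0.11, -1.03 and -0.71 and rose by 1.94 (adjusted p = 0.00855). Cd3g, a chain of the T cell receptor complex, rose by 1.83 (adjusted p = 0.00467), the kinase Lck by 1.39 (adjusted p = 0.00532) and the adaptor Lat by 1.48 (adjusted p = 0.0204), but with normexp background correction Cd3g rose by 1.15 and Lat by 0.76. The brightest probe was that of Cd4, also carried by macrophages, at 5.55, 5.79, 5.26, 5.14, 5.05 and 5.08; it was not called (-0.44), and with it the summed level was 54.2, 63.0, 45.1, 47.6, 43.4 and 43.9. Cd8a (-0.24) and Cd3e (-0.28), named after their values were seen, were not called either. Of 18 markers of cytotoxic lymphocytes 11 rose and 0 fell (median 1.33, or 1.17 with bounded genes at their bound and 0.64 with normexp). Gzmk, a granzyme, rose at least 2.31-fold (adjusted p = 0.00240) and Pdcd1, the receptor PD-1, at least 2.78-fold (adjusted p = 0.00193). Nkg7, a granule protein, read -1.36, -1.03, -1.42, 0.71, 2.90 and 0.84 (adjusted p = 0.0160). Summed levels were 5.41, 5.69, 4.6, 17.5, 28.1 and 23.1 with Ccl5 brightest, and no aged liver overlapped the young. Without young 1, 2, 3 and aged 1, 2, 4 the counts were 7, 7, 7, 9, 12 and 11 for T cells and 6, 5, 9, 9, 10 and 9 for cytotoxic cells, and with the replicate block they were 1 and 3. Lat failed without any young sample (highest adjusted p 0.0704) and Nkg7 without young 1 or young 2 (highest 0.0562); Cd2, Cd3g, Lck, Gzmk, Pdcd1 and Ccl5 passed in all 6 fits.

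Fewer genes were called in the B cell, plasma cell and dendritic cell lists, which are also shorter. Of 14 B cell markers 4 rose and 0 fell (median 0.97, but 0.25 without aged 1 and 1.71 without aged 2): Cd72 (2.65, adjusted p = 0.00594), the adaptor Blnk (2.44, adjusted p = 0.00986), the receptor chain Cd79b (1.96, adjusted p = 0.0402) and Bank1 (1.67, adjusted p = 0.00392). Their summed level was 5.45, 3.81, 3.63, 19.2, 10.7 and 12.2, with Blnk brightest. The defining marker Ms4a1 (1.32), named after its values were seen, was not called; it was at -4.10 in aged 2 and at 0.36 in aged 1. Of 10 plasma cell markers 5 rose and 1 fell; the median of 0.44 was 0.00 over genes well above background on all 6 arrays. Jchain, which joins IgA and IgM, read -1.92, -2.41, -2.23, 4.01, 1.37 and 2.70 and rose by 4.88 (adjusted p = 0.00388). Mzb1, a chaperone of antibody assembly, rose by 2.36 (adjusted p = 0.0217), Pou2af1, a B lineage coactivator, by 2.15 (adjusted p = 0.0334) and Prdm1, the factor of plasma cell fate, by 1.56 (adjusted p = 0.00599). Aged 1 was highest for Jchain, Mzb1 and Pou2af1. The brightest member was Eaf2 (0.89), and the sum was 69.3, 71.4, 53.3, 111, 97.6 and 110. Of 13 dendritic cell markers 5 rose and 3 fell (median 0.38), and the sum of 177, 169, 182, 151, 177 and 180, with Siglech brightest, overlapped. The lectin Clec10a rose by 3.78 (adjusted p = 0.0251), Clec9a, of cross-presenting cells, by 2.01 (adjusted p = 0.00524), the factor Irf8 by 1.87 (adjusted p = 0.00283) and the receptor Flt3 by 1.78 (adjusted p = 0.00866). Those that fell, named after their values were seen, were Kmo (-1.13), a kynurenine enzyme that hepatocytes make too, Ccr9 (-0.97) and Cd209a (-0.87). Counts higher without young 1, 2, 3 and aged 1, 2, 4 were 3, 3, 3, 3, 8 and 3 for B cells, 2, 3, 3, 4, 5 and 4 for plasma cells and 4, 4, 4, 5, 6 and 4 for dendritic cells, and dendritic genes lower were 1, 0, 2, 1, 1 and 2. Cd79b and Pou2af1 passed only without aged 2 (highest adjusted p 0.113 and 0.106), Mzb1 failed without any young sample (highest 0.0721) and Clec10a passed without aged 1 or aged 2 alone (highest 0.0818).

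In the lists of antigen presentation and interferon response, calls were in the higher direction only. Of 11 genes of MHC class II presentation 8 rose and 0 fell (median 1.87). Cd74, the invariant chain, read 3.54, 4.30, 3.07, 6.89, 5.05 and 4.95 and rose by 2 (adjusted p = 0.0399). Ifi30, a thiol reductase of lysosomes, rose by 2.47 (adjusted p = 0.00185), the protease Ctss by 2.18 (adjusted p = 0.00528) and H2-DMb1, which loads peptides, by 2.02 (adjusted p = 0.00960). The summed level was 70.1, 121, 57.0, 467, 314 and 212, so the ages were apart and aged 1 was highest. Of 24 interferon-stimulated genes 16 rose and 0 fell (median 1.06). Oas1a, a sensor of double-stranded RNA, read 1.49, 1.79, 1.60, 3.64, 4.50 and 4.22 and rose by 2.49 (adjusted p = 0.00220). Its relatives Oas2 and Oas3 rose by 2.18 (adjusted p = 0.0112) and 2.22 (adjusted p = 0.0149), and Ifi27l2a by 2.21 (adjusted p = 0.00466). Aged 2 was highest and aged 1 lowest among the aged livers for all 4. Without young 1, 2, 3 and aged 1, 2, 4 the counts were 3, 7, 4, 5, 7 and 8 for MHC class II and 10, 12, 12, 14, 14 and 14 for interferon, and the replicate block gave 2 and 5. Cd74 passed without aged 2 or aged 4 alone (highest adjusted p 0.108), and Oas3 failed without young 1 or young 2 (highest 0.0530).

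Promoters of some interferon-stimulated genes are shown, of which 16 of 24 rose. Type I interferon acts through the interferon-stimulated response element, spelled here as GAAANNGAAA and searched on both strands in the RefSeq promoters of GRCm38.p6, from 250 bases before to 50 bases after each start. The letters are in 3.44% of 32851 promoters. Of the 24 tested members 18 had a promoter in that table, and 11 of the 18 held the letters: 5 of the 11 that rose and 6 of the 7 that were not called. The promoters of those 5 follow, with that of Isg15 (0.33), 1 of the 6, and the letters are in capitals, as the complement where they lie on the other strand; Gbp2 (1.84), Ifit1 (1.05), Ifit3 (1.07) and Isg15 were chosen after their values were seen. A match is a description of the sequence, not evidence of binding. Oas1a is at chr5:120907476-120907775 on the minus strand, Oas3 at chr5:120777610-120777909 on the minus strand, Gbp2 at chr3:142620413-142620712 on the plus strand, Ifit1 at chr19:34640639-34640938 on the plus strand, Ifit3 at chr19:34583279-34583578 on the plus strand and Isg15 at chr4:156200769-156201068 on the minus strand.
Oas1a: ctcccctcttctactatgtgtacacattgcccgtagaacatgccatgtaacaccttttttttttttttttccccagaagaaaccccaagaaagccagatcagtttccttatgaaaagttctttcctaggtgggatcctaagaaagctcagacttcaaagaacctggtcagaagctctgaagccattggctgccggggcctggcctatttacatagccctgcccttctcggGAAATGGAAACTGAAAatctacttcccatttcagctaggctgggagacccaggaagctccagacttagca
Oas3: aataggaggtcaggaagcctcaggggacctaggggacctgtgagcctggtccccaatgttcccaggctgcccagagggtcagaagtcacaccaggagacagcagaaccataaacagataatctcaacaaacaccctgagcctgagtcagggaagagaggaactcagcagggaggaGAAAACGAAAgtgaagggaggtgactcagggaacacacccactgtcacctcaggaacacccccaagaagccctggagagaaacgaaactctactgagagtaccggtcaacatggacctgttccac
Gbp2: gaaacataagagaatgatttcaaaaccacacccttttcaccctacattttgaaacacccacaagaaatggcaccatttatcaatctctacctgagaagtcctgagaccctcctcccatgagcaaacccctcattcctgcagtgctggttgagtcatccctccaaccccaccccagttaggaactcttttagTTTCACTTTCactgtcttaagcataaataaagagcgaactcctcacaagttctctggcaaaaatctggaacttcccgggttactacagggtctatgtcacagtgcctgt
Ifit1: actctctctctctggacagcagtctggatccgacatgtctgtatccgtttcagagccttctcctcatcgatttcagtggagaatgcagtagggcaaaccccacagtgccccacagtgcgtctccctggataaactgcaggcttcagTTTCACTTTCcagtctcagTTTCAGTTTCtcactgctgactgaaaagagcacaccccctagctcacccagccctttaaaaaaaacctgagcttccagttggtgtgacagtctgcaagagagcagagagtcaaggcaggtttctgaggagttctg
Ifit3: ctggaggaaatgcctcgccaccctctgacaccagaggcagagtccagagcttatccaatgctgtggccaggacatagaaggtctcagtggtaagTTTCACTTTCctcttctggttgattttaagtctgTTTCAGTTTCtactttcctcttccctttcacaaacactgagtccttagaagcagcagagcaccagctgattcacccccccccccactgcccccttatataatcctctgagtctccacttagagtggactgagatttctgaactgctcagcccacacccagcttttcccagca
Isg15: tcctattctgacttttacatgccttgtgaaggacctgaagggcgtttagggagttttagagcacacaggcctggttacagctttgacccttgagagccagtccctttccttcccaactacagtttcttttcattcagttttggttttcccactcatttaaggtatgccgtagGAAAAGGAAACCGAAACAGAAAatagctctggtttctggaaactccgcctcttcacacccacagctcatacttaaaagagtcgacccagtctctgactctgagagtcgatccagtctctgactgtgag
Isg15 holds 3 overlapping matches, from 78, 72 and 66 bases before the start, and Oas1a 2, from 20 and 14 bases before it. Ifit1 and Ifit3 hold 2 each, Oas3 and Gbp2 1 each. For the sex-biased genes the STAT letters TTCNNNGAA were searched in the same way; they are in 8.30% of promoters, in 1 of 13 male-biased genes with a promoter (Bcl6, -0.83, not called) and in 1 of 12 female-biased (Fmo2, 2.01, called), both named after their values were seen.

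Stellate cell markers rose by small amounts in most members. Of 18 tested, 13 rose, 0 fell and the median was 0.78. Lrat, which stores retinol as its ester, read -0.36, -1.24, -0.73, 0.96, 0.64 and 0.97 and rose by 1.64 (adjusted p = 0.00735). The superoxide dismutase Sod3 rose by 1.72 (adjusted p = 0.00264) and the proteoglycan Dcn, the brightest, by 1.18 (adjusted p = 0.00780). Summed levels were 165, 189, 138, 320, 371 and 337 with no overlap. Of 26 genes of activated fibroblasts and matrix 12 rose and 0 fell (median 0.90), and the sum was 214, 236, 283, 362, 486 and 325 with Fn1 brightest. Ccn2, which answers TGF-beta and stretch, read 1.25, 2.72, 2.43, 4.31, 4.53 and 4.82 and rose by 2.42 (adjusted p = 0.00801). Vim rose by 2.27 (adjusted p = 0.00525), Postn by 1.52 (adjusted p = 0.0123) and Lum by 1.38 (adjusted p = 0.00480). Of collagen I, chosen after its values were seen, Col1a1 rose by 1.27 (adjusted p = 0.0373) and Col1a2 by 1.13 (adjusted p = 0.0123). Acta2, the actin of activated cells, read 3.63, 3.63, 3.36, 3.93, 4.10 and 3.39 and was not called (0.26), also named after its values were seen. The stellate count was 7 with spike-in scaling and 2 with the replicate block, and that of the matrix list was 2 with the block. Without young 1, 2, 3 and aged 1, 2, 4 the stellate count was 5, 6, 7, 6, 6 and 11, and the matrix count 7, 6, 12, 10, 10 and 12. Lrat, Sod3, Dcn, Ccn2, Vim, Postn and Lum passed in all 6 fits.

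Sinusoidal endothelial markers were split: 5 of 22 rose, 1 fell and the median was 0.26. Lyve1, a hyaluronan receptor, read -0.02, -0.36, 0.73, 1.31, 2.44 and 2.16 and rose by 1.85 (adjusted p = 0.0164). The Fc receptor Fcgr2b rose by 1.01 (adjusted p = 0.0122) and the cadherin Cdh5 by 0.86 (adjusted p = 0.0115). Wnt2, a signal from central endothelium to hepatocytes, read 0.61, 0.75, 0.87, -0.17, -0.89 and -0.20 and fell by 1.17 (adjusted p = 0.0151). The sum was 132, 129, 130, 144, 156 and 162, with Clec4g brightest. Of 12 cholangiocyte markers 2 fell (16.7%, near the 17.0% of all genes) and 0 rose (median -0.48), Cftr by 0.54 (adjusted p = 0.0465) and Dcdc2a by 0.55 (adjusted p = 0.0468; adjusted p = 0.324 on the mean of its 2 passing probes); the sum of 10.4, 10.6, 20, 12.3, 21.8 and 8.87, with Spp1 brightest, overlapped. Krt19, a defining keratin of bile ducts named after its values were seen, was at -1.49, -1.18, -1.35, -1.08, -2.16 and -2.60 and not called. Endothelial genes called higher numbered 2, 1, 3, 3, 3 and 4 without young 1, 2, 3 and aged 1, 2, 4, and cholangiocyte genes called lower 0, 0, 0, 2, 1 and 0, with 2 called higher without aged 4. Lyve1 failed without young 1 or young 2 (highest adjusted p 0.0603), Cdh5 and Wnt2 without young 2 (0.0535 and 0.0587), Cftr passed only without aged 2 (highest 0.129) and Dcdc2a in 0 fits (highest 0.143).

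**Figure D4:**
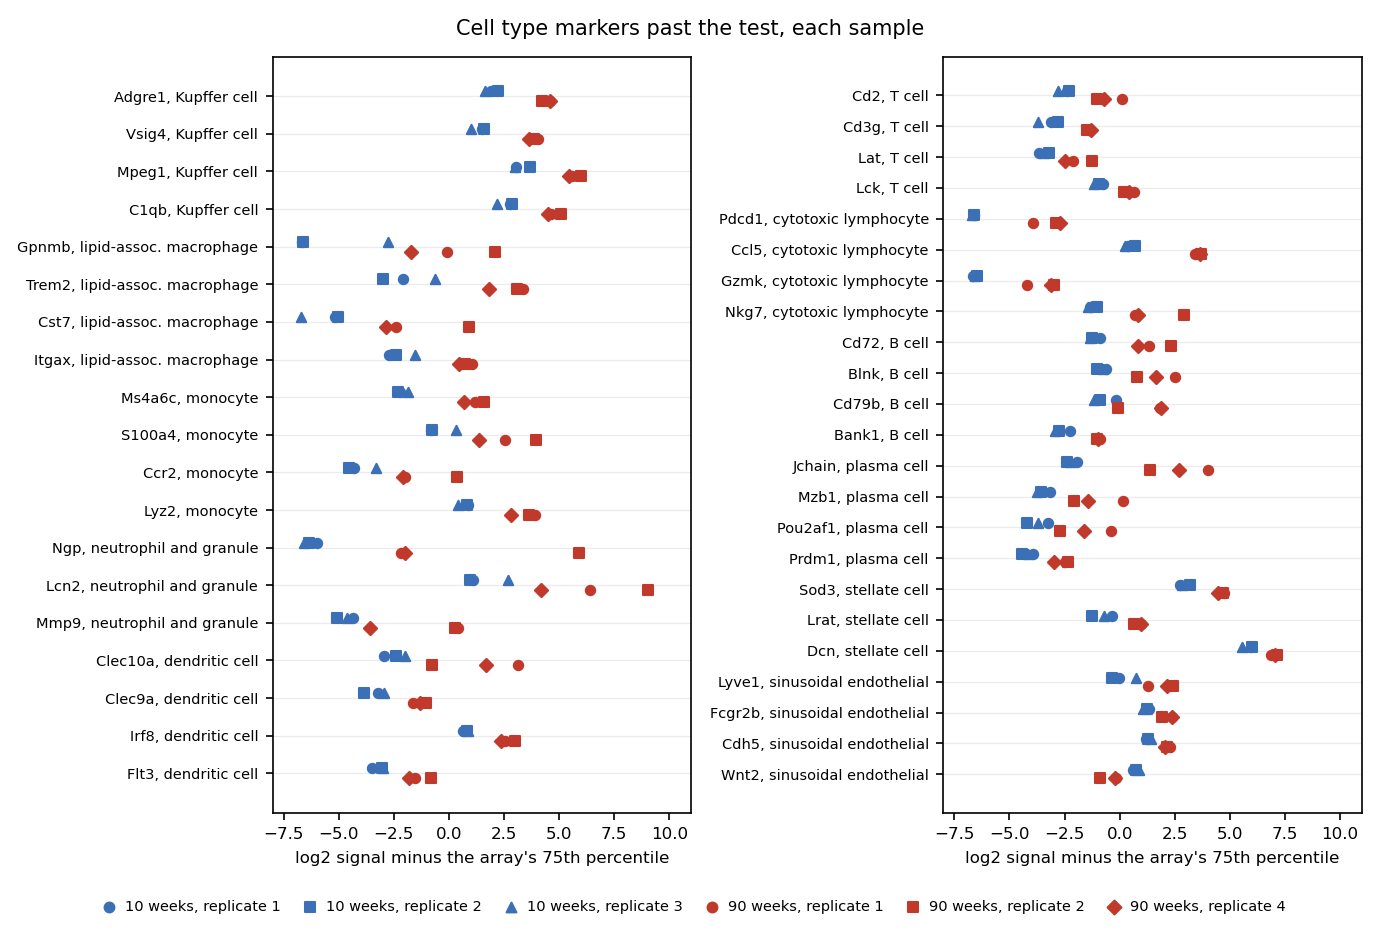
Level of the called cell type markers chosen by rule in the 6 livers, log2 signal minus the array's 75th percentile. Adgre1 spans 1.63 to 2.21 in the young livers and 4.20 to 4.59 in the aged, while Ngp reads 5.89 in aged 2 and -2.20 and -2.02 in the other aged livers.

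The summed levels of acute phase and fetal genes were highest in aged 2, but Saa3 and Mest were highest in aged 1. Of 30 acute phase genes 4 rose (13.3%, against 10.5% of all genes) and 1 fell (median 0.84, or 0.46 without aged 2), and the summed level was 6810, 6660, 8460, 6990, 14400 and 7440 with C3 brightest. Beside Lcn2, given above, Saa3, a serum amyloid of macrophages, rose by 2.44 (adjusted p = 0.00840), the endotoxin receptor Cd14 by 2.61 (adjusted p = 0.0127) and Itih3, a carrier of hyaluronan, by 1.12 (adjusted p = 0.0474). Serpina3m, named after its values were seen, fell by 0.82. Saa1, the main hepatic amyloid, named in the same way, read 4.48, 4.77, 7.87, 6.52, 9.97 and 6.23, so young 3 lay above aged 1 and aged 4, and it was not called. Of 18 genes of fetal liver and liver tumours 4 rose and 0 fell (median 0.72). H19, an imprinted RNA that is silenced after birth, read -4.56, -4.91, -5.62, -0.73, 2.54 and -1.40 and rose at least 27.5-fold (adjusted p = 0.0127). On the mean of its 2 passing probes H19 rose by 3.48 on the log2 scale (adjusted p = 0.0332), which is below that bound. Tff3, a trefoil peptide, rose by 4.13 (adjusted p = 0.0163) at -0.84, 0.34, -0.04, 3.33, 5.99 and 2.53, Dlk1, a Notch-like ligand, by 1.68 (adjusted p = 0.0407; 1.28 and not called on the mean of its 2 passing probes, adjusted p = 0.107) and the imprinted gene Mest by 0.60 (adjusted p = 0.0422). Acute phase genes called higher numbered 2, 2, 6, 2, 5 and 8 without young 1, 2, 3 and aged 1, 2, 4, and 8 with spike-in scaling; fetal genes numbered 1, 2, 2, 3, 6 and 7. Saa3, Cd14 and H19 passed in all 6 fits. Itih3 passed without aged 2 (where it was 0.73) or aged 4 alone (highest adjusted p 0.128), Tff3 failed without young 1 (0.0594), Dlk1 passed without aged 1 or aged 2 (1.1 without aged 2, highest 0.119) and Mest in 0 fits (highest 0.134).

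Over all genes with a symbol, the largest rises and falls reached beyond the lists. Clec5a, a myeloid lectin receptor, read -6.80, -6.71, -6.81, -0.02, 0.77 and -1.71 and rose at least 20.1-fold (adjusted p = 0.00170). Slc22a26, an organic anion transporter, read -4.68, -4.71, -4.10, 2.13, 2.91 and -0.11 and rose by 6.14 (adjusted p = 0.00327), with 1 of 3 young arrays well above background. Esm1, a proteoglycan secreted by endothelium, read -0.84, -3.09, -0.53, 3.71, 4.47 and 4.21 (5.62, adjusted p = 0.00312). These 3 were chosen among genes whose groups do not overlap, so their separation is not a result. The monocyte chemokine Ccl8 rose by 5.58 (adjusted p = 0.00301; 1 of 3 young arrays well above background; 3.29 with normexp correction) and Trem3, a myeloid receptor, at least 8.43-fold (adjusted p = 0.0111). Among the falls beyond the male-biased genes were Syt10, a synaptotagmin (2.59, 2.63, 1.37, -4.62, -4.02 and -1.63; adjusted p = 0.00523), and Pax2, a transcription factor best known from kidney (5.42, 5.66, 5.66, -1.26, -1.78 and 3.08; adjusted p = 0.0178). The fall of Pax2 was 5.57 on the probe read here and 3.23 on the mean of its 2 passing probes. The carboxylesterases Ces4a and Ces2b fell by 4.28 (adjusted p = 0.00283) and 3.93 (adjusted p = 0.0151), and for Ces4a 1 of 3 aged arrays was well above background and the fall was 2.54 with normexp background correction. Cfd, the complement factor adipsin, read -0.63, 2.94, 0.28, -6.23, -6.42 and -0.83 and fell by 5.36 (adjusted p = 0.0473), again with 1 of 3 aged arrays well above background. Aged 4 was the nearest to the young for Syt10, Pax2, Ces2b, Ces4a and Cfd. Clec5a, Slc22a26, Esm1, Ccl8, Trem3, Syt10 and Ces4a passed in all 6 fits without 1 sample. Pax2 failed without young 1, young 2 or aged 1 (highest adjusted p 0.0609), Ces2b without young 1 or young 2 (highest 0.0557), and Cfd passed only without aged 4 (highest 0.137).

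Across the 149 named genes that were called, 60 passed in each of the 6 fits without 1 sample. Those that did not pass numbered 82, 86, 58, 61, 36 and 21 without young 1, 2, 3 and aged 1, 2, 4 in turn.

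Whether the liver changes differed from those of the other tissues was tested directly, as the liver change minus the mean change of lung, kidney and WAT, over all 24 arrays and 25785 genes. The liver change was above that mean for 1440 genes (5.58%) and below it for 2099 (8.14%). The arrays of every tissue lie together on a separate slide, so tissue and slide cannot be told apart in this contrast. Esm1 led the genes above, with a difference of 6.2 (adjusted p = 1.17e-05): it changed by 5.62 in liver, -0.20 in lung, -1.60 in kidney and 0.04 in WAT. Zbtb8b, a zinc finger gene, differed by 5.73 (adjusted p = 2.72e-05), and H19 differed by 5.51 (adjusted p = 0.000185). Clec5a differed by 4.68 (adjusted p = 0.000114), and by 1.67 with normexp background correction (adjusted p = 0.0567). No young liver array was well above background for Zbtb8b, H19 or Clec5a, whose rises in liver are known only as bounds (at least 6.37-, 27.5- and 20.1-fold), so the size and order of these 3 differences are uncertain; with normexp correction that of Zbtb8b was 2.21 and that of H19 3.63.

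On the other side were Syt10 (-5.44, adjusted p = 0.00217), Cyp4a12b (-4.47, adjusted p = 0.0338), Hamp2 (-4.21, adjusted p = 0.00186), Bhlha15, a factor of secretory cells (-4, adjusted p = 0.000543), and the potassium channel gene Kcnh2 (-3.90, adjusted p = 0.000957). Bhlha15 changed by -1.17 in liver, 0.64 in lung, 3.31 in kidney and 4.54 in WAT. It was well above background on 2 of 3 young kidney arrays and 1 of 3 young WAT arrays. With normexp background correction its difference was -2.69 (adjusted p = 0.000892), so its size is uncertain too. Kcnh2 was not well above background in any aged liver and fell at least 3.65-fold there, so the size of its difference is uncertain. The Cyp4a12b difference lost its call without any 1 liver sample except aged 4, and without aged 2 it was -2.75 (adjusted p = 0.13). It was also not called with kidney left out (-4.16, adjusted p = 0.0874), lung left out (-4.68, adjusted p = 0.0838) or spike-in scaling (-4.37, adjusted p = 0.0580). With normexp background correction Kcnh2 differed by -1.33 (adjusted p = 0.0818). Hamp2 differed by -3.94 (adjusted p = 0.00146) without replicate 1 of lung at 90 weeks.

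Of 18 T cell markers 10 were below the other tissues and 0 above, with a median change of 1.11 in liver and 2.03 elsewhere. Cd3d, a receptor chain named after its values were seen, changed by 1.13 in liver and by 1.58, 3.03 and 3.09 in lung, kidney and WAT (difference -1.44, adjusted p = 0.000861). Cytotoxic markers had 5 of 18 below and 0 above. Of 28 cholesterol genes 6 lay above, 1 lay below and the others were not called, with Sqle, an epoxidase of synthesis named after its values were seen, at 2.03 in liver and -0.64 on average elsewhere (difference 2.67, adjusted p = 0.00844); within liver Sqle was not called (adjusted p = 0.0841). In fatty acid oxidation 8 of 33 were below and 0 above, in the male-biased list 5 of 17 and 0, and in the female-biased list 0 of 9 below and 4 above. For Kupffer cells 0 of 12 tested markers differed in either direction, with medians of 1.97 in liver and 2.12 elsewhere, but 2 were below with lung left out and 1 above with WAT left out; a p that misses the threshold does not show equality. Over the 15 alternatives, T cell genes below numbered 4 to 12, cytotoxic genes 1 to 5, cholesterol genes above 4 to 11, oxidation genes below 2 to 18, male-biased genes below 2 to 10 and female-biased genes above 1 to 5. The lowest T cell count, 4, came with spike-in scaling, and without young 1 cholesterol genes above numbered 11.

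**Figure D5:**
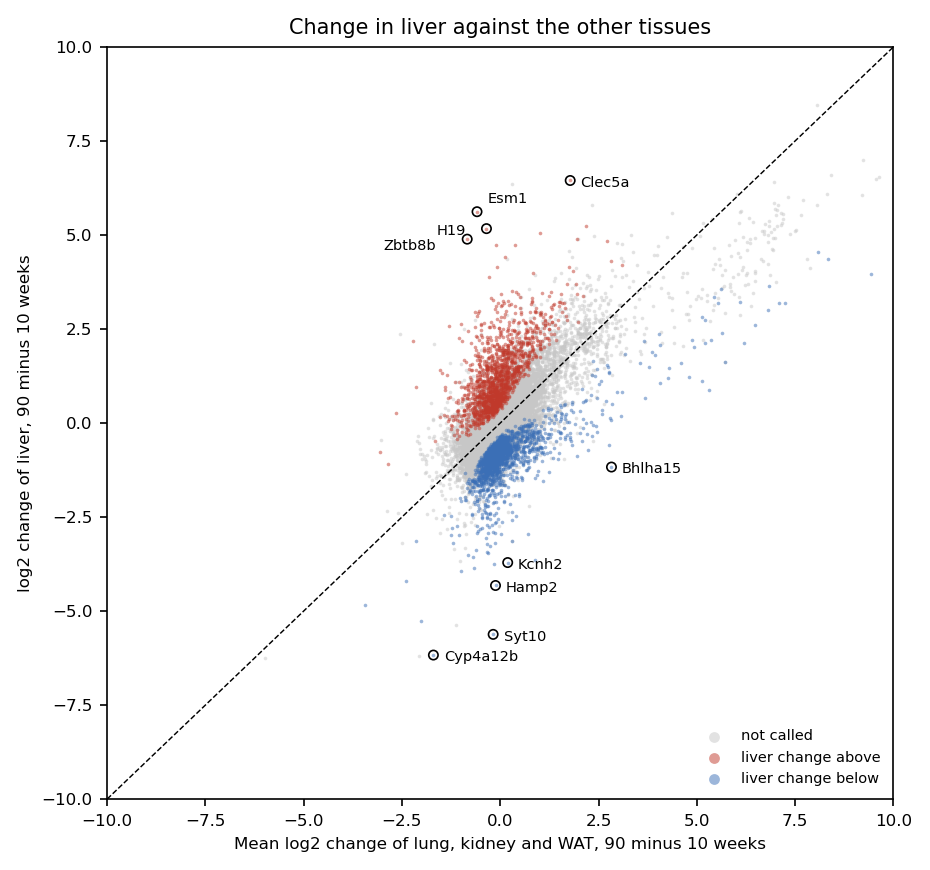
Log2 change of each gene in liver (y) against its mean change in lung, kidney and WAT (x), 90 minus 10 weeks, coloured where the difference was called: 1440 above and 2099 below. Esm1 lies at 5.62 in liver and -0.59 in the other tissues.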

How the data were processed

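Per the file headers, the deposited files hold spot intensity (processed signal, median signal and local background) and, as another kind of value (other), the quality flags of the scan software; the headers name Agilent Feature Extraction 11.0.1.1 and state no scaling between arrays. Probes were matched to mouse RefSeq symbols (58.3% of 56605; the rest kept under the file's name). Non-uniform and population outlier spots were left out, spots of a probe averaged, and a probe kept where 3 or more of the 6 arrays had it well above background. The log2 signal minus each array's 75th percentile was fitted with limma 3.58.1 in R 4.3.3 (Benjamini-Hochberg adjusted p below 0.05); figures used Python 3.11.15 and matplotlib 3.10.9. The fit was tested on simulated data. In the contrast between tissues a gene had to pass the filter in each tissue. There were 17 alternatives for liver and 15 for the contrast, 1 of the latter chosen after seeing the data. The members and 43 lists (813 of 861 genes tested) were chosen with earlier results of these data known. Named genes were, in each list, up to 4 called members with the largest change whose groups do not overlap and whose brighter group is well above background on all its arrays (else the 2 brightest members); over all genes, the 10 largest in each direction; in the contrast, the 5 largest in each direction; and the hepatocyte markers.  Some genes that the rule picks are not named in the text or figures.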

Additional observations from a re-analysis of the deposited data

Results flagged for a closer look

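Genes whose change with age differed between liver and the other tissues, by the tested difference itself, numbered 1440 with the liver change above the mean of lung, kidney and WAT and 2099 with it below. Among the genes of the rule with the largest differences were Esm1 (6.2), Zbtb8b (5.73), H19 (5.51) and Clec5a (4.68) above, and Syt10 (-5.44), Cyp4a12b (-4.47), Hamp2 (-4.21), Bhlha15 (-4) and Kcnh2 (-3.90) below. In liver no young array was well above background for Zbtb8b, H19 or Clec5a and no aged array for Kcnh2, so their changes there are known only as at least 6.37-, 27.5-, 20.1- and 3.65-fold, and the size and order of these 4 differences are uncertain. The difference of Bhlha15 was -2.69 with normexp background correction. Tissue and slide cannot be told apart in any of these differences.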

How the results depend on the processing

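Over the 17 alternatives for liver, named genes kept their direction and side of the threshold in 2074 cases, kept their direction but lost the call in 648, gained a call in 6 and turned direction in 7. The 7 all fell on hepatocyte markers that were not called: under quantile normalization Ahsg was 0.04, Apoa1 0.20, Pck1 0.07 and Trf 0.38, under spike-in scaling Trf was 0.07, and without 1 sample in turn Tat ranged from -0.80 to 0.19 and Trf from -0.26 to 0.00. Genes called higher numbered 1068 with the replicate block and 1321 with the methods' unpaired t-test, each adjusted, and 1497 to 2716 without 1 sample. Genes called lower numbered 7818 with all 24 arrays in the fit, 12841 with no filter on dim probes, 2547 among genes with a symbol (fewer were tested), 630 with the replicate block, 854 with spike-in scaling and 1785 with the t-test, and 997 to 4430 without 1 sample. The median over all genes was -0.38 with no filter, -0.16 among genes with a symbol, -0.11 with quantile normalization and -0.04 with spike-in scaling. Of the 7677 calls, spike-in scaling kept 3290 and the replicate block 1588, and 0 turned sign under either. Calls that turned sign numbered 32 with the mean of a gene's passing probes, 18 with normexp, 3 with genes well above background on all 6 arrays, 2 with no filter and 0 under every other alternative. The cause of these changes was not tested.

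Only replicate numbers 1 and 2 are shared by the ages, and the labels do not tie them to a common animal or day; the deviations from the group mean correlated across genes at 0.06 for young 1 and aged 1 and -0.09 for young 2 and aged 2, so the block was kept as an alternative. Here normexp gave 28.0% of calls higher and no filter 20.4%, against 62.9% with the block.

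With normexp, genes named in the report that lost their call were Cst7, Cux2, Cyp3a44, Dlk1, Mmp9 and Ngp (adjusted p = 0.0699, 0.0768, 0.0578, 0.131, 0.0504 and 0.103). Others kept theirs with a smaller change: Ccl8 (3.29), Ccr2 (1.69), Cd3g (1.15), Ces4a (-2.54), Clec9a (1.33), Gpnmb (3.26), Lat (0.76), Mzb1 (1.56), Oas3 (1.26), Pou2af1 (1.38) and Prdm1 (0.61). Of rises given as at least a fold, Pdcd1 was 0.82, Gzmk 1.07, Clec5a 3.20, Trem3 2.36 and H19 3.29 on the log2 scale with normexp, which is below the printed bounds, so the bounds do not hold under it. Among rises known only as a bound, the bound without aged 2 was 5.83-fold for Ngp, 5.5-fold for Cyp3a44, 4.05-fold for Cst7, 3.63-fold for Trem3, 11.9-fold for H19, 13.8-fold for Clec5a, 5.07-fold for Cux2 and 7.9-fold for Mmp9; without aged 1 it was 4.37-fold for Cux2 and 7.47-fold for Mmp9. Medians of lists moved too: without aged 1 that of fetal genes was 0.47 and of mesothelial markers -1.30, without aged 2 that of lipogenesis was -0.30 and of hepatocyte transcription factors -0.21, and without aged 4 that of P450 genes was -1.01, of antioxidant genes -0.51, of dendritic cells 0.12 and of sinusoidal endothelium 0.17. With normexp the plasma cell median was 0.16. With the replicate block, genes called higher numbered 4 for monocytes, 5 for interferon-stimulated genes, 2 for MHC class II and 1 for B cells. In the contrast between tissues the count above was 856 with lung left out and 932 with normexp, and 1039 to 1511 without 1 liver sample. The count below was 1208 with lung left out, 505 with spike-in scaling and 1222 to 2284 without 1 liver sample. Replicate number as a block across tissues gave 1477 above and 2160 below, with a correlation within blocks of 0.0216. In an alternative chosen after seeing the data, without replicate 1 of lung at 90 weeks, the counts were 1366 and 2131. Signal over background limits dim genes: for 617 of the called genes no array of the dimmer age was well above background, so the fold is known only as a bound. With 3 samples an age, on 1 slide, and no hour of collection, smaller changes cannot be judged.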

Other observations

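Of 25 genes of the unfolded protein response and of endoplasmic reticulum chaperones, 3 fell (12%, against 17.0% of all genes tested), 0 rose and the median was -0.35 (-0.20 over all genes, and -0.19 for this list with spike-in scaling). Manf, a stress-induced secreted factor, fell by 0.89 (adjusted p = 0.0416) and read 4.21, 3.55, 3.81, 3.13, 3.22 and 2.54 in young 1, 2, 3 and aged 1, 2, 4. The cochaperone Dnajb9 fell by 0.81 (adjusted p = 0.0477) and the lectin chaperone Calr by 0.69 (adjusted p = 0.0335). The count was 0, 1, 1, 0, 2 and 1 without young 1, 2, 3 and aged 1, 2, 4, and 0 with spike-in scaling; Manf passed in 0 of those fits, Calr only without aged 2 and Dnajb9 only without aged 4 (highest adjusted p 0.120, 0.111 and 0.137). Of 11 erythroid markers 0 were called by limma, and the median of 0.17 turned to -0.31 without aged 2. Hba-a1, an alpha globin, read 7.22, 5.28, 5.84, 6.80, 7.57 and 5.87 and was the brightest; its levels overlapped between the ages, and its source and its part in the leukocyte lists were not tested. The summed erythroid level was 367, 121, 152, 255, 436 and 151. Erythroid genes called lower numbered 1 without aged 1 and 2 without aged 4.

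Of 5 mesothelial markers 0 were called (median -0.59); the sum was 2.53, 0.928, 1.58, 2.70, 0.790 and 0.976, the brightest was Msln, and Wt1 read -1.76, -4.13, -3.14, -1.01, -1.77 and -1.60 (1.55, adjusted p = 0.0780). Of 6 adipocyte markers Fabp4 rose, Cfd and Lep (-0.69, adjusted p = 0.0269) fell, and the median of 0.28 turned to -0.03 with no filter; the sum was 6.29, 14.6, 8.23, 17.8, 22.4 and 25.1 with Fabp4, which macrophages also express, brightest. Of 7 pancreatic acinar markers Cela2a rose by 1.27 (adjusted p = 0.0287) and Ctrb1 fell by 1.63 (adjusted p = 0.00856), with a median of -0.69 and sums of 25.5, 25, 21.8, 16.4, 11.1 and 20.5, Cela1 brightest. Without young 1 or aged 1 in turn, 1 mesothelial gene was called higher and 1 lower. Adipocyte genes called lower numbered 0, 0, 1, 0, 0 and 2 without young 1, 2, 3 and aged 1, 2, 4. Lep passed without young 3 or aged 4 alone (highest adjusted p 0.0887), Cela2a without aged 2 or aged 4 (highest 0.0879) and Ctrb1 in all 6 fits. The part of such cells in the liver results was not tested.

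Outside liver, replicate 1 of lung at 90 weeks carried hepatocyte transcripts. Alb was at 6.23 on that array and between -3.92 and 0.21 on the other lung arrays, and Ahsg was at 5.14, Apoc3 at 3.75, Ttr at 3.22 and Apoa1 at 1.70. Its source was not tested.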
